A study of Mus musculus with 4 samples.

Results

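The genes described are 6 receptors that steer developing and mature T cells through tissues: the chemokine receptors Cxcr4, Ccr9 and Ccr7, the sphingosine-1-phosphate receptor S1pr1, and the integrin subunits Itga4 and Itgb7. They were taken as named receptors of thymocyte migration and homing, through every probe set that the platform annotation assigns to 1 of them alone. This gave 10 probe sets for 6 of the 8251 genes that a probe set names alone. The series used 4 Affymetrix arrays to measure RNA of double-positive thymocytes, immature thymic T cells with both CD4 and CD8 on their surface. Thymi of 4-week-old female C3H/HeN mice were the source, and the cells were isolated with microbeads. One group of 2 arrays held cells cultured for 3 h in medium with 1e-07 M dexamethasone, a synthetic glucocorticoid, in PBS. The other group of 2 arrays held cells cultured for 3 h in medium with 0.1% PBS. Both groups were plated in 3 ml at 5e+06 cells per ml. The 2 arrays of a group are described as technical replicate extracts, so p-values measure the spread between extracts and not between animals. The number of mice and any pooling are not given in the sources used here.

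Chemokine receptors are G protein-coupled receptors that turn a gradient of a secreted ligand into directed movement. Cxcr4, which binds Cxcl12, and Ccr9, which binds Ccl25, help to place immature thymocytes in the thymic cortex, and Ccr7, which binds Ccl19 and Ccl21, draws positively selected cells into the medulla. S1pr1 senses sphingosine-1-phosphate in blood and lymph and lets mature thymocytes leave. Itga4 encodes the integrin alpha 4 chain, which pairs with the beta 1 chain to bind Vcam1 and fibronectin, or with the beta 7 chain of Itgb7 to bind the gut addressin Madcam1.

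Of the 5 receptor genes bright enough to be tested, 0 passed the test for a response to dexamethasone, and the integrin chains stood closest to it, in opposite directions. Itga4 had a 1.58-fold higher fitted signal with dexamethasone than in medium. Itgb7 had 0.765 times the medium signal. The chemokine receptor genes Cxcr4, Ccr9 and Ccr7 differed by log2 values between -0.13 and 0.17. S1pr1 was at background in both groups. The test was a limma fit over 5582 genes on log2(signal + 1), two-sided, and a gene passed at a Benjamini-Hochberg adjusted p under 0.05. It called 3.91% of all genes, 1.88% as higher with dexamethasone and 2.02% as lower, beside 0 of these 5. Before adjustment, limma put 2 of the 5 under 0.05, Itga4 and Itgb7, beside 19.9% of all genes.

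The arrays were alike in overall level. Median signals were 22.8 and 21.9 with dexamethasone and 21.7 and 21.1 in medium, after a scaling by the authors that gives every array a trimmed mean of 100.06 to 100.07. Signals up to 14 were taken as background, the highest value of 19 bacterial and yeast control probe sets, judged by these low values as not added to the samples. All 10 double-positive thymocyte markers that the array measured lay above background, Cd4 at 443.1 and 448.2 with dexamethasone and 422.7 and 508.2 in medium. Of these 10 markers 0 rose and 2 fell, Ptcra at 49.5 and 47.0 with dexamethasone against 87.7 and 86.1 in medium (limma adjusted p = 0.0192), and Cd8b1 at 1647.7 and 1626.2 with dexamethasone against 2137.8 and 1992.9 in medium (limma adjusted p = 0.0466). Both calls were lost when any array was left out. Fkbp5, an established glucocorticoid-induced gene, had a signal of 2267 ± 162 with dexamethasone and 625 ± 49.6 in medium (mean ± SD, n = 2 each). The spiked hybridization controls were 1.37-fold higher on the dexamethasone arrays, and scaling to them would put the median gene at a log2 difference of -0.45. RNA integrity was read as a control's 3′ signal over its 5′ signal. For the actin control this was 1.40 and 1.24 with dexamethasone and 1.15 and 1.06 in medium. For the Gapdh control it was 0.904 and 0.823 with dexamethasone and 0.838 and 0.845 in medium, so that the groups overlapped. The part of RNA integrity in the results was not tested.

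The promoters of Itga4 and Itgb7 are shown because the 2 chains form a common receptor and their signals moved apart, and that of Cxcr4 because it holds a half-site for the glucocorticoid receptor. Of the 6 genes, 4 had a promoter in the RefSeq table of GRCm38.p6, namely these and Ccr9; Ccr7 and S1pr1 had no entry matched. Each window runs from 250 bases before to 50 bases after the listed gene start, and capitals mark motif matches. The window of Itgb7 (chr15:102231886-102232185, minus strand) is placed at the start that the table lists, and the annotated gene reaches further upstream.
Itga4, chr2:79255176-79255475, plus strand: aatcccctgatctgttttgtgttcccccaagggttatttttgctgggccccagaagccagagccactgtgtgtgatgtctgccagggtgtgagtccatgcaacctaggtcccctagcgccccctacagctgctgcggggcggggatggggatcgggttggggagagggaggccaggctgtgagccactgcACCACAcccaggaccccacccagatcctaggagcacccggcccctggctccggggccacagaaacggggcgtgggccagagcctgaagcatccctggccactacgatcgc
Itgb7, chr15:102231886-102232185, minus strand: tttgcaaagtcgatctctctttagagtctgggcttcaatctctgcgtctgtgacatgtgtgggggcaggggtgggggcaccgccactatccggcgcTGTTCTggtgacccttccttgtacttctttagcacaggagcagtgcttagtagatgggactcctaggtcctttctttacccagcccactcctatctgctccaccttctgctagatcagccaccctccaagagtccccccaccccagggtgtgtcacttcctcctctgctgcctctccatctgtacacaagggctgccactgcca
Cxcr4, chr1:128592250-128592549, minus strand: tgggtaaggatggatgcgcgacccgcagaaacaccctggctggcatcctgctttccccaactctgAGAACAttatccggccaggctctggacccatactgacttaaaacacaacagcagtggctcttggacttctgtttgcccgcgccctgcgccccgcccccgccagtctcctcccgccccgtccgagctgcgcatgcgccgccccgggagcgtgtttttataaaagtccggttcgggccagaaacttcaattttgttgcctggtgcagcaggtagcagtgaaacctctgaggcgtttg

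The motifs searched on both strands were the glucocorticoid receptor half-site AGAACA, the full element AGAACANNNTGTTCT, which contains 2 half-sites, and the Runx core TGTGGT. The half-site was found in the window of Cxcr4, at positions -185 to -180 from the gene start, and on the opposite strand in that of Itgb7, at -154 to -149. It occurs in 19.0% of 32851 promoter windows of the same length. The Runx core was found in 1 of the 4 windows, that of Itga4, at -60 to -55 on the opposite strand, and occurs in 16.8% of all windows. The window of Ccr9 held neither, and the full element was in 0 of the 4 windows and in 0.00913% of all windows. These matches describe the letters and show no binding.

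**Figure D1:**
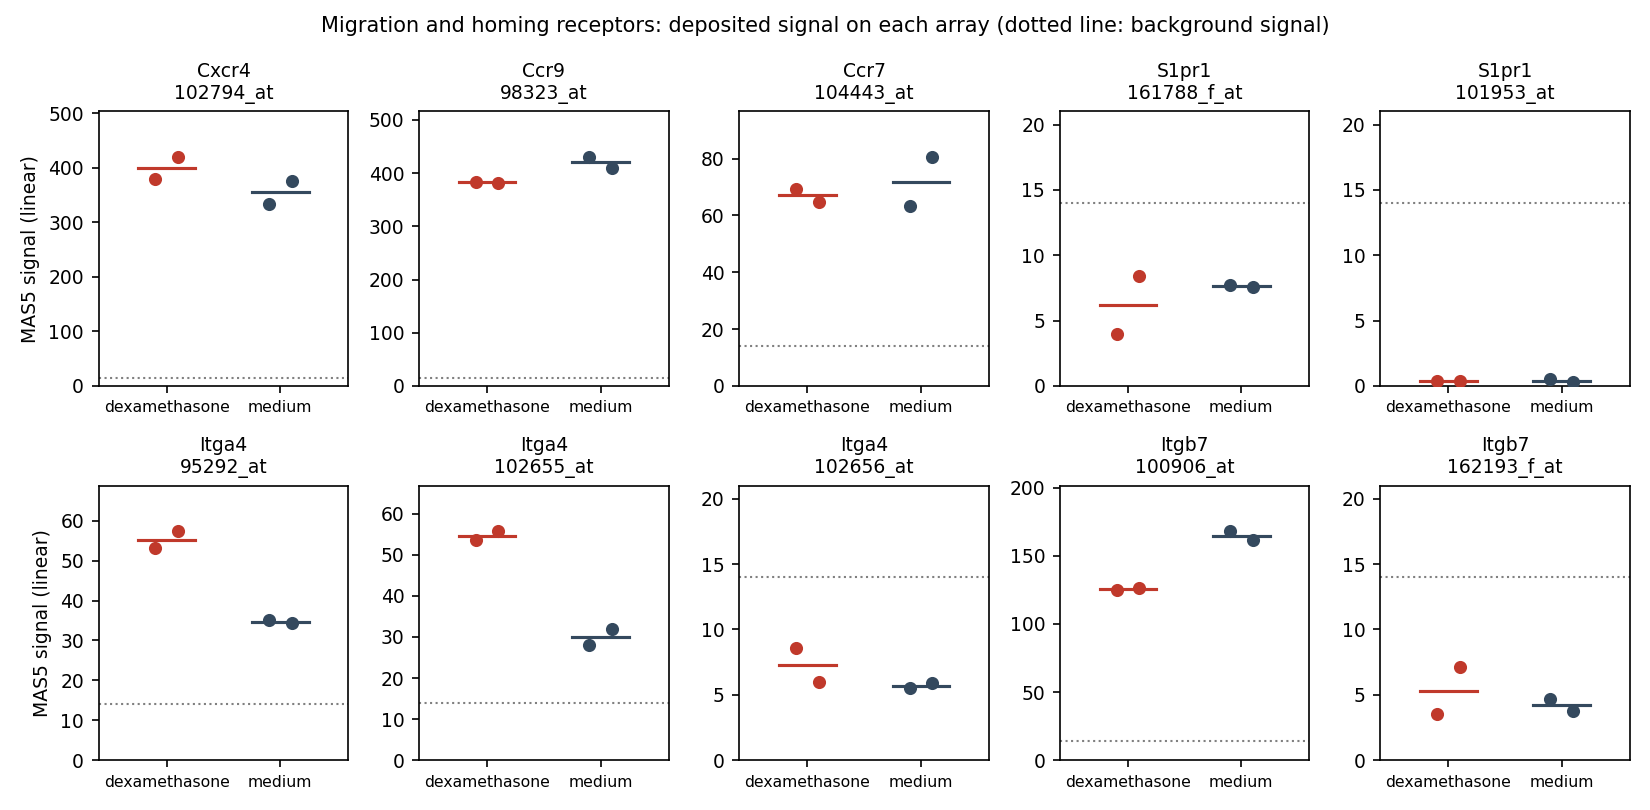
Deposited MAS5 signal (linear axis from 0, its own scale in each panel) of the 10 probe sets of the 6 receptor genes, with 1 point for each array, dexamethasone left of medium, a bar at the mean of 2 arrays and a dotted line at the background signal of 14. Both brighter Itga4 probe sets lay higher with dexamethasone and the brighter Itgb7 probe set lay lower, without overlap, while both S1pr1 probe sets, the third Itga4 probe set and the second Itgb7 probe set lay under the background line.

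Cxcr4, the receptor for the retention signal Cxcl12, was well above background on its only probe set. Its signal was 378.5 and 419.3 with dexamethasone, against 334.1 and 376.0 in medium. Both dexamethasone arrays lay above both medium arrays, but the lower dexamethasone value exceeded the higher medium value only slightly. The log2 difference was 0.17 ± 0.09 (SE), with a 95% interval from -0.05 to 0.39 and a limma adjusted p of 0.368, and its sign turned to -0.29 with scaling to the hybridization controls.

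Ccr9, which guides thymocytes along Ccl25 and later marks T cells bound for the small intestine, lay slightly lower with dexamethasone. The signal was 384.0 and 380.9 with dexamethasone, against 429.8 and 410.1 in medium. The groups did not overlap, and the dexamethasone arrays differed from each other by less than the medium arrays did. The log2 difference was -0.13 ± 0.07 (95% interval -0.30 to 0.03, limma adjusted p = 0.337). Scaled to the hybridization controls, it was -0.59 and passed (limma adjusted p = 0.00918), beside 45.0% of all genes tested.

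Ccr7, the receptor of the medullary chemokines, was dimmer and showed no separation. The signal was 69.4 and 64.7 with dexamethasone, against 63.3 and 80.5 in medium. Both dexamethasone values lay between the medium values, so that the groups overlapped. The log2 difference was -0.09 ± 0.15 (95% interval -0.45 to 0.27, limma adjusted p = 0.798), and it was 0.08 without the second medium array. Scaled to the hybridization controls, it was -0.54 and passed (limma adjusted p = 0.0281), beside 45% of all genes tested.

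S1pr1, the exit receptor, was not detected above background. Its brighter probe set gave 4.0 and 8.4 with dexamethasone, against 7.7 and 7.6 in medium. The other probe set gave at most 0.5 on any array. It was left out by the filter on dim genes and no fold change is given. The dim result bounds the array signal and not the number of transcripts.

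Itga4 had the largest difference among the receptors, and it was seen on both probe sets that lay above background. The probe set 95292_at, which represents the gene in the fit as the brightest, gave 53.1 and 57.3 with dexamethasone, against 35.0 and 34.3 in medium. The probe set 102655_at gave 53.7 and 55.7 with dexamethasone, against 28.1 and 32.0 in medium. On both, each dexamethasone array lay above each medium array by more than the arrays of a group differed.

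For the gene, the log2 difference of Itga4 was 0.66 ± 0.14 (95% interval 0.31 to 1.003), larger than in all but 2.79% of the genes tested. Its limma adjusted p was 0.0630, short of the threshold. In a fit of 6701 probe sets, which called 3.51% of them, 102655_at passed with a log2 difference of 0.85 ± 0.16 (limma adjusted p = 0.0423). That call was lost when any array was left out, with adjusted p from 0.130 to 0.246. The third probe set, 102656_at, was at background, with 8.6 and 6.0 with dexamethasone and 5.5 and 5.9 in medium. With scaling to the hybridization controls the gene's log2 difference was 0.21.

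Itgb7 moved the other way on its bright probe set, 100906_at. The signal was 125.3 and 126.2 with dexamethasone, against 167.9 and 161.7 in medium. The groups were well apart compared with the spread inside each. The log2 difference was -0.39 ± 0.09 (95% interval -0.59 to -0.18, limma adjusted p = 0.0633), and 7.33% of the genes tested had a lower one. Scaled to the hybridization controls, it was -0.84 and passed (limma adjusted p = 0.000741), beside 45% of all genes tested. The second probe set, 162193_f_at, was at background, with 3.5 and 7.1 with dexamethasone and 4.7 and 3.8 in medium. Averaging both probe sets gave a log2 difference of -0.09 (adjusted p = 0.859), since the dim one enters with equal weight.

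In all, 4 of the 5 tested receptor genes had groups that did not overlap, Itga4 and Cxcr4 higher with dexamethasone and Itgb7 and Ccr9 lower. Groups did not overlap for 50.5% of all genes, 24.7% higher and 25.7% lower with dexamethasone, so that non-overlap by itself was common on these arrays.

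**Figure D2:**
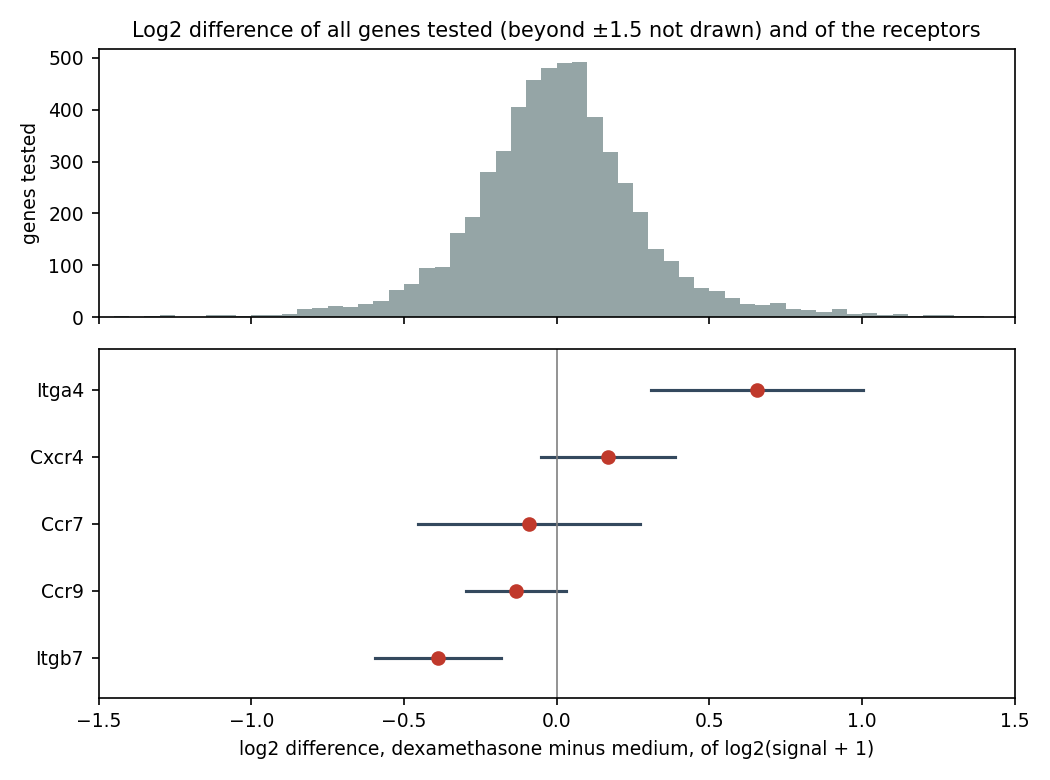
Upper panel, number of tested genes by log2 difference, dexamethasone minus medium, in bins of equal width. Lower panel, the log2 difference of the 5 tested receptor genes (points) with 95% intervals from limma (lines, 2 arrays a group), where Itga4 at 0.66 and Itgb7 at -0.39 have intervals that leave out 0 before adjustment and Cxcr4, Ccr7 and Ccr9 have intervals that cover it.

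A ratio of 2 probe sets on the same array is free of any factor that scales a whole array. Its level depends on the probes, so only its difference between groups is read. The log2 ratio of Itga4 (95292_at) to Itgb7 was -1.24 and -1.14 with dexamethasone, against -2.26 and -2.24 in medium. The dexamethasone arrays were thus higher by 1.06, many times the spread within a group (SD 0.07 with dexamethasone and 0.02 in medium, n = 2 each). With 102655_at the log2 ratio was -1.22 and -1.18 with dexamethasone and -2.58 and -2.34 in medium, a difference of 1.26. An exact two-sided permutation test gave p = 0.333 for either, the smallest that 2 against 2 arrays allow. The ratio describes an unequal difference of the 2 signals that no scaling of whole arrays can alter, and not which of them moved. It restates the differences of Itga4 and Itgb7 given above, the highest and the lowest among the tested receptors, and is no separate evidence.

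The other partner of the alpha 4 chain, the beta 1 chain gene Itgb1, differed little. Its signal was 931.2 and 846.2 with dexamethasone, against 837.6 and 837.4 in medium (log2 difference 0.08 ± 0.07, limma adjusted p = 0.566). Relative to Itgb1 on the same array, Itga4 was higher by 0.59 and Itgb7 lower, with a difference of -0.47, both as log2 ratios of dexamethasone against medium. Itgae, which encodes the alpha E chain, the other partner of beta 7, gave 17.7 and 19.5 with dexamethasone and 21.2 and 18.2 in medium.

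**Figure D3:**
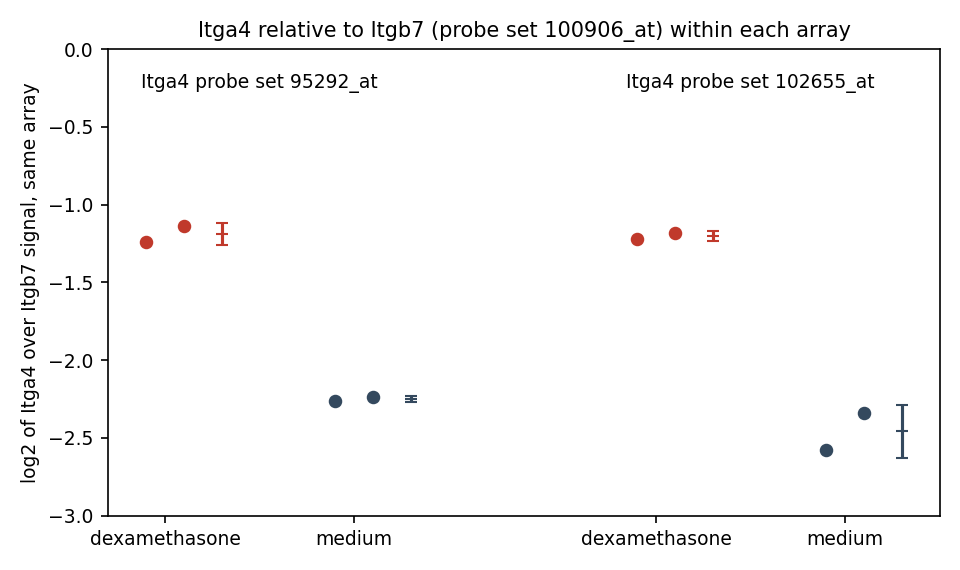
Log2 ratio of Itga4 to Itgb7 signal on the same array (vertical axis), for 2 Itga4 probe sets, with points for arrays and bars for the mean ± SD (n = 2), dexamethasone left of medium. The dexamethasone arrays lie between -1.24 and -1.14 and the medium arrays between -2.58 and -2.24.

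Of 123 listed genes of migration and homing, the 6 receptors included, the array named 98 and the filter left 63. Of these 63, 2 rose and 0 fell, or 3.17%, beside 3.91% of all genes. Their median log2 difference was -0.04, and that of all genes was 0.00. The share that passed was near that of all genes.

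Among 7 tested genes of the sphingosine-1-phosphate axis, 1 rose. It was Sgpp1, which encodes a phosphatase that converts sphingosine-1-phosphate back to sphingosine. Its signal was 134.1 and 93.9 with dexamethasone, against 52.9 and 40.7 in medium. All dexamethasone values lay above the medium values, with a wide spread inside the dexamethasone group. The log2 difference was 1.26 ± 0.21 (limma adjusted p = 0.0290), and the call was lost without the first dexamethasone array (adjusted p = 0.123), the first medium array (0.114) or the second medium array (0.172). Of the receptors for this lipid, S1pr4 gave 187.4 and 172.8 with dexamethasone and 208.7 and 241.5 in medium (-0.32 ± 0.10, adjusted p = 0.156), a gene chosen after its values were seen. Klf2, the factor that switches on S1pr1 in mature T cells, gave 36.7 and 26.2 with dexamethasone and 34.0 and 47.6 in medium. Cd69, which pulls S1pr1 from the surface, and Foxo1 were not named alone by a probe set.

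Of 29 tested genes of chemokine receptor signalling and integrin activation, 1 rose and 0 fell. Rgs3, which speeds the shutdown of G proteins, gave 166.8 and 197.5 with dexamethasone, against 111.7 and 126.3 in medium. The log2 difference was 0.61 ± 0.12 (limma adjusted p = 0.0476), and the call was lost in 10 of 16 alternative analyses. Among them were the 4 that leave out an array (adjusted p from 0.0853 to 0.246), median centring (0.0799) and scaling to the hybridization controls, where the log2 difference was 0.15. Arrb1, chosen after its values were seen, encodes beta-arrestin 1, which uncouples activated receptors from G proteins. Its signal was 55.5 and 45.0 with dexamethasone, against 91.7 and 79.6 in medium (-0.76 ± 0.15, limma adjusted p = 0.0510), and its second probe set had a log2 difference of -0.65. It was past the threshold in 7 of 16 alternative analyses.

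Chemokine receptors other than the members were mostly dark. Of 17 chemokine receptors on the array, the 3 members included, 11 were under the filter, and 0 of the 6 tested passed. Besides the 3 members, the largest differences were those of Ackr4, a scavenger of Ccl19, Ccl21 and Ccl25, and Xcr1. Ackr4 gave 17.8 and 14.9 with dexamethasone and was at background in medium, at 8.8 and 6.2. Its mean with dexamethasone was only 1.17 times the background signal, and the gene did not pass (limma adjusted p = 0.145). Xcr1 had a log2 difference of -0.29 ± 0.23.

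Of the ligands of the 6 receptors, some were at background in these sorted cells. Cxcl12 gave at most 6.6, Ccl25 at most 5.2 and Vcam1 at most 11.6 on any array. Ccl19 and Ccl21a were not named alone by a probe set. Ccl22 was the only one of 10 measured chemokine genes to pass the filter, at 59.8 and 42.2 with dexamethasone and 51.9 and 44.5 in medium (log2 difference 0.06 ± 0.20). Madcam1, the ligand of the alpha 4 beta 7 pair, lay above background on its brighter probe set, at 39.7 and 22.9 with dexamethasone and 27.1 and 31.3 in medium (0.05 ± 0.28). Its other probe set was at background, with 9.6 and 8.3 with dexamethasone and 8.6 and 5.5 in medium.

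Of 11 tested integrin subunit genes 0 passed. The largest differences were those of Itga4 and of Itgb5, a beta chain that pairs with alpha V. Itgb5 gave 31.5 and 27.9 with dexamethasone and 21.1 and 15.8 in medium (0.67 ± 0.23, limma adjusted p = 0.177). Its other probe set was at background. Of 9 tested integrin ligands and other adhesion receptors 0 passed. The largest differences there were those of the fibronectin gene Fn1 (-0.60 ± 0.28) and of Spn, which encodes the sialoglycoprotein CD43 (-0.42 ± 0.21). Fn1 lay near background, at 16.9 and 11.3 with dexamethasone, the latter under 14, and 22.4 and 20.7 in medium.

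**Figure D4:**
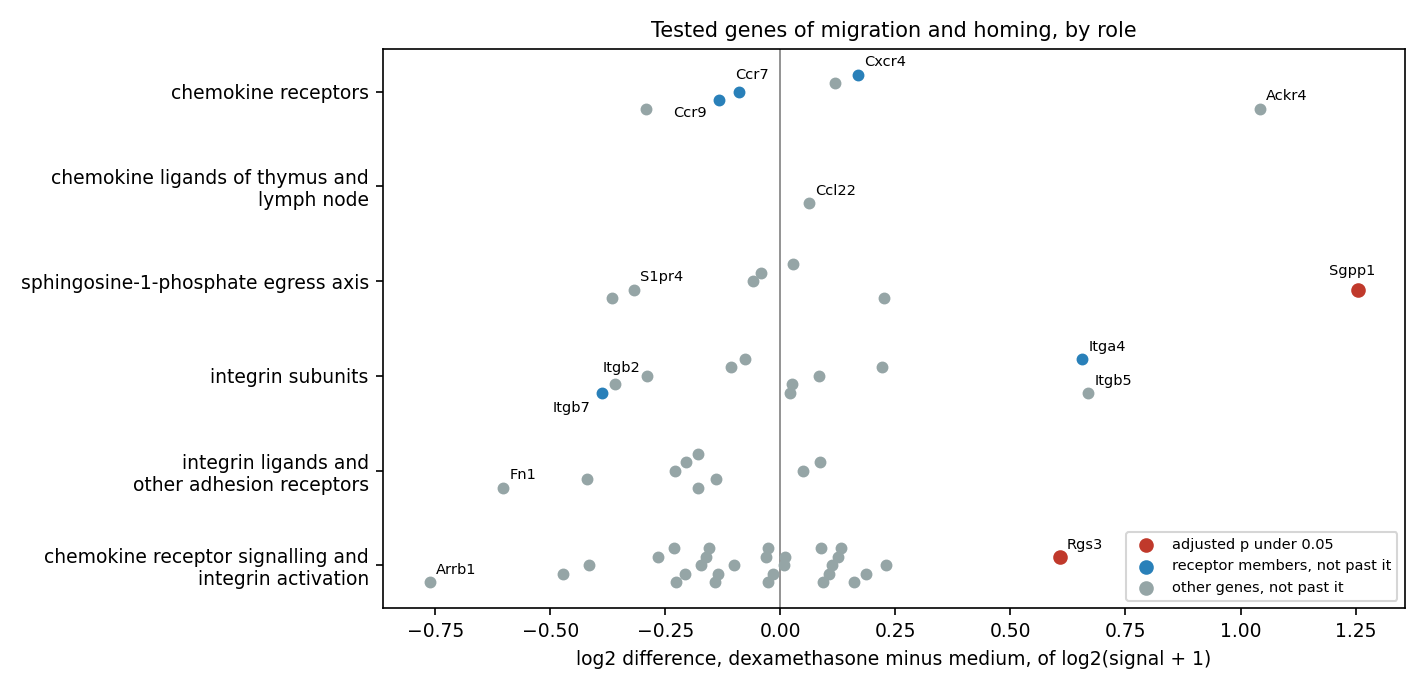
Log2 difference, dexamethasone minus medium (horizontal axis), of each tested gene in 6 role lists (rows). Points in red passed the limma threshold (Sgpp1 and Rgs3), points in blue are receptor members and points in grey are other genes, neither past it.

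The genes whose signals ran most like those of a receptor over the 4 arrays were found by Euclidean distance of log2 signals centred on each gene's mean. For Itga4 they were G3bp2, Taf1d and H3c14, at distances of 0.08, with log2 differences of 0.60, 0.73 and 0.62. These 3 genes rose (limma adjusted p = 0.0207, 0.00828 and 0.0451), and each of these calls was lost when any array was left out. Averaging the probe sets of a gene put G3bp2 at 0.47 (limma adjusted p = 0.0522) and Taf1d at 0.38 (0.207), and left H3c14 at 0.62. Scaled to the hybridization controls, the 3 log2 differences were 0.15, 0.27 and 0.17 and did not pass. For Itgb7 the nearest genes were Eef1akmt1, Kcnab2 and Tmem229b, with log2 differences of -0.41, -0.40 and -0.41, and 0 of these passed. For Cxcr4 they were Nasp, Ppp1r7 and Srxn1, for Ccr9 Znhit2, Bak1 and Ulk1, and for Ccr7 Phf23, Ift20 and Thoc7. The 4 arrays carry little shape beyond the group difference, and the likeness is a description.

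Cells other than double-positive thymocytes can also carry these receptors, and fewer cells of a type and less RNA per cell cannot be told apart in bulk RNA. The mature single-positive list had 7 of 10 markers on the array, 3 of them receptor members. The sum of all 7 was 2305 to 2506 with dexamethasone and 2014 to 2059 in medium, most of it Slfn2, at 2063.6 and 1875.4 with dexamethasone and 1649.4 and 1584.7 in medium. Il7r, itself a glucocorticoid receptor target, gave 146.8 and 139.3 with dexamethasone and 49.4 and 58.0 in medium. The other 2 markers outside the members did not run that way: Slfn1 gave 60.5 and 64.5 with dexamethasone and 87.1 and 73.4 in medium, and Klf2 overlapped between groups. The B cell list had 9 of 10 on the array, with Cd22 and Cr2 at background, and its sum was 1930 to 1953 with dexamethasone and 1426 to 1450 in medium. Most of this was Ighm, the mu heavy chain gene and the only one of 7 tested B cell markers that passed. It gave 1751.4 and 1748.9 with dexamethasone and 1282.4 and 1257.4 in medium (log2 difference 0.46, limma adjusted p = 0.0123). Scaled to the hybridization controls the difference was 0.01, and the call was lost when any array was left out (adjusted p from 0.0554 to 0.147). The other 8 B cell markers summed to 181 to 201 with dexamethasone and 168 to 169 in medium. The double-negative thymocyte list, with 8 of 8 on the array and Kit, Il2ra, Cd44 and Cd34 at background, summed to 291 to 318 with dexamethasone and 414 to 443 in medium. Gfi1 made up 128.4 and 138.4 of this with dexamethasone and 227.6 and 225.5 in medium. It was the only 1 of 5 tested markers there that passed (limma adjusted p = 0.00811). Gata3 was also lower, at 64.9 and 66.8 with dexamethasone and 92.9 and 102.9 in medium. Notch3 overlapped between groups, and Hes1 was higher, at 30.2 and 34.4 with dexamethasone and 25.1 and 28.8 in medium. The macrophage and dendritic cell list had 10 of 10 on the array, with Adgre1, Itgam, Lyz2 and C1qa at background. Its sum was 137 to 157 with dexamethasone and 178 to 182 in medium, and 0 of 7 tested markers passed. Mpeg1 gave 30.2 and 29.9 with dexamethasone and 42.3 and 50.6 in medium, and Itgax was also lower. Cd68 was higher, at 21.5 and 20.5 with dexamethasone and 17.6 and 19.3 in medium. Csf1r, Cd14 and C1qb overlapped between groups. The thymic stroma list, with 10 of 10 on the array and Krt5, Krt8, Krt14, Epcam, Col3a1 and Foxn1 at background, summed to 318 to 352 with dexamethasone and 399 to 421 in medium. Its lower sum rests on Cldn4, at 87.4 and 97.8 with dexamethasone and 202.9 and 210.2 in medium (limma adjusted p = 0.00307, or 0.0556 without the second medium array). Col1a1 gave 33.5 and 38.2 with dexamethasone and 16.5 and 18.4 in medium and did not pass (limma adjusted p = 0.0502). The part of these cells in the receptor values was not tested.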

How the data were processed

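Intensities were deposited on a linear scale. The authors made them with MAS5, per the submitters' processing notes (version and settings are not given there); detection calls were not used. The table held 12488 probe sets, 66 of them controls, and 0 columns of other samples; 10833 named 1 gene. Signals were used as log2(signal + 1), so fold changes understate those of dim genes. Each gene was represented by its brightest probe set, and genes at or under the 40th percentile of the mean log2 signal of all probe sets other than controls were left out, leaving 5582. Dexamethasone was compared with medium in limma 3.58.1 under R 4.3.3 (lmFit, eBayes with a trend on mean signal). The fit was tested on simulated data. The number of arrays limits the precision.

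The members, gene lists and settings were chosen with earlier results of these data known. Named were every member, the passing genes of each of 6 lists or else the 2 largest differences, direct ligands and partners, and the 3 nearest genes of each tested member. Alternatives changed the scaling, pseudocount, filter, variance trend, probe set rule, block and arrays.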

Additional observations from a re-analysis of the deposited data

How the results depend on the processing

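The 16 alternatives included 1 chosen after seeing the data, the filter percentile taken over genes. Changed genes numbered 218 (105 higher, 113 lower). They numbered 2513 (43 higher, 2470 lower) with scaling to the hybridization controls, 116 with no filter, 19 with no variance trend, 353 with a replicate block and 32 to 78 without any 1 array. Of the listed migration genes 2 passed, against 36 (1 higher, 35 lower), 0, 0, 4 and 0 to 1 in the same alternatives, and 4 with the filter at the 60th percentile. Across the tested genes, the replicate deviations of the dexamethasone and medium arrays had a correlation of 0.07. The labels do not say whether the array numbers pair the groups. The block moved no receptor across the threshold.

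Scaling to the hybridization controls turned Cxcr4 to -0.29 and put Ccr9 (-0.59), Ccr7 (-0.54) and Itgb7 (-0.84) past the threshold. The filter at the 60th percentile put Itga4 past it (0.66, adjusted p = 0.0455). Without any 1 array, log2 differences ran from 0.08 to 0.25 for Cxcr4, -0.17 to -0.10 for Ccr9, -0.26 to 0.08 for Ccr7 (0.0809 without the second medium array), 0.60 to 0.71 for Itga4 and -0.41 to -0.36 for Itgb7. Itga4 was above 0 and Itgb7 below 0 in all 16, with adjusted p from 0.0455 to 0.415 and from 0.000741 to 0.859. Most of these could not turn the sign. Changes of filter, variance trend and block and the fit of probe sets leave a log2 difference as it is. Groups that do not overlap keep their order with another pseudocount or without an array. The sign could turn only with another scaling or with the mean of probe sets. On 102655_at the Itga4 call was lost with median centring (0.79), scaling to the hybridization controls (0.40), no filter and no variance trend (0.85 in both), and without any 1 array (0.76 to 0.94); the stricter filter left this probe set out. The cause of these changes was not tested. S1pr1 stayed at background.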
